A study of Homo sapiens with 12 samples.

Results

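Integrins and laminins are the receptors and the ligands of the contact between an epithelial cell and its basement membrane. An integrin is a heterodimer of an alpha and a beta chain that spans the plasma membrane, binds matrix proteins outside the cell and couples to the cytoskeleton inside it. A laminin is a heterotrimer of an alpha, a beta and a gamma chain that is secreted and polymerises into the basement membrane sheet. Because chains work only as assembled dimers or trimers, a change of 1 chain can alter which receptor or ligand a cell can build.

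The genes described here are all rows of the deposited table whose symbol is that of an integrin alpha chain (17 genes), an integrin beta chain (8 genes) or a laminin alpha (5 genes), beta (4 genes) or gamma chain (3 genes), which gave 37 genes of 17303. They were measured by RNA-seq in SNU638 cells, an established line from a human gastric cancer, after lentiviral infection and puromycin selection. The groups were 1 line with a control hairpin, labelled wt, and 3 lines with different hairpins against SKA2 (sh-SKA2-1, sh-SKA2-2 and sh-SKA2-3), called hairpin 1, hairpin 2 and hairpin 3 here, with 3 libraries each. SKA2 encodes a subunit of the SKA complex, which links kinetochores to spindle microtubules. Since each hairpin came as 1 stable line, an effect of the hairpin and a property of the line cannot be told apart, and no label tells whether its libraries were separate cultures, so each p-value rests on a spread between libraries that may be technical alone.

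The libraries held 14693343 to 16739155 expected counts. SKA2 lay at 116.8 to 126 CPM (reads scaled to library size by the trimmed mean of M values, TMM) in the control line and at 22.32 to 28.01 CPM in the 9 knockdown libraries, with log2 fold changes of -2.33, -2.25 and -2.18. Epithelial markers (EPCAM, KRT8, KRT18, KRT19 and CDH1) summed to 3252 to 3642 TPM (a unit that also accounts for transcript length) in the control line, between 3133 and 3269 TPM with hairpin 1, between 1543 and 1649 TPM with hairpin 2 and between 2766 and 3083 TPM with hairpin 3, and 0 of 5 leukocyte and 0 of 4 endothelial markers had enough reads to be tested. Of the 4 fibroblast markers present, 1 had enough reads: COL1A1, at means of 2.03, 1.74, 2.56 and 1.31 TPM in the control line and with hairpins 1, 2 and 3. The epithelial markers did not move alike. In the control line and with hairpins 1, 2 and 3, KRT8 had means of 1247, 1182, 407 and 1014 TPM. In the same order EPCAM had 293, 340, 281 and 350 TPM, and CDH1, at a low level, 1.46, 3.56, 0.95 and 2.72 TPM. The libraries also differed in how counts depended on transcript length: the slope of log2 abundance per doubling of length was -0.06, -0.25 and -0.33 in the control libraries, between 0.08 and 0.11 with hairpin 1, between 0.16 and 0.21 with hairpin 2, and 0.09, -0.13 and -0.18 in the hairpin 3 libraries. This bears on integrin and laminin genes, whose tested members had a median transcript of 5618 bases against 3164.5 for the matched genes of the table.

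Reads of 25 chain genes sufficed for the test, 16 integrin and 9 laminin genes. The other 12 had at most 6 reads in any library. Among them were the leukocyte chains ITGAL, ITGAX, ITGA4, ITGB2 and ITGB7, together with ITGA8, ITGA9, ITGA11, ITGB6, LAMA4, LAMB4 and LAMC3. ITGB6, the epithelial partner of the alphaV chain, was thus nearly absent from the counts of every line. In these 12 genes no difference was detectable at this depth.

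In the control line, on the TPM scale that allows levels of different genes to be compared, ITGB1 led the integrins at 452 ± 147 TPM (SD, n = 3). The beta1 chain pairs with most alpha chains. ITGA2, the alpha chain of the collagen receptor alpha2beta1, followed at 133 ± 86.6 TPM. ITGB5 lay at 73.1 ± 5.30 TPM, ITGA6 at 52.8 ± 17.8 TPM, ITGB4 at 37.8 ± 1.87 TPM and ITGA3 at 26.7 ± 2.06 TPM. The chains of the laminin receptors alpha3beta1, alpha6beta1 and alpha6beta4 were thus all present. Of the laminins, LAMB2 reached 31.6 ± 2.40 TPM, LAMC1 20.2 ± 5.41 TPM, LAMB1 14.2 ± 2.45 TPM, LAMA5 9.60 ± 1.67 TPM and LAMB3 7.30 ± 0.570 TPM. LAMA5 was the most abundant laminin alpha chain, and LAMA3, the alpha chain of laminin-332, lay at 0.197 ± 0.102 TPM. In this order the ranges of 1 SD around the means overlapped for ITGA2 and ITGB5, ITGB5 and ITGA6, ITGA6 and ITGB4, and LAMC1 and LAMB1.

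**Figure D1:**
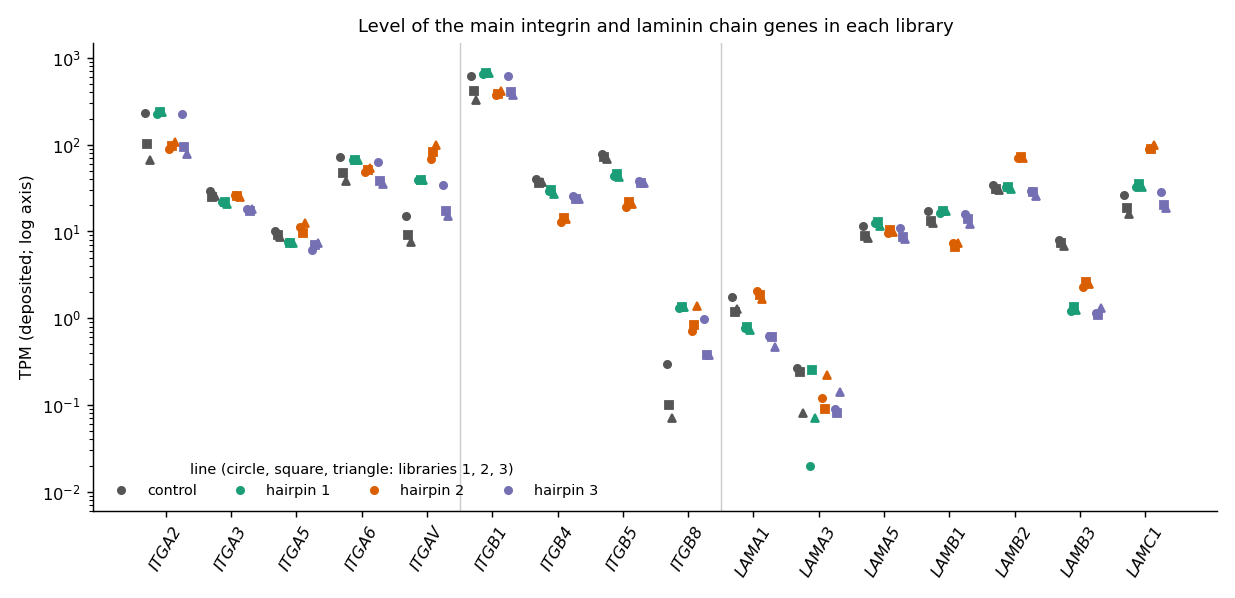
Level of the main chain genes (horizontal axis) in deposited TPM (vertical log axis), with 1 point per library, colours for the 4 lines and shapes for libraries 1, 2 and 3 of a line. ITGB5, ITGB4 and LAMB3 lie lower in all 9 knockdown libraries than in all 3 control libraries, and ITGAV, LAMC1 and LAMB2 stand highest with hairpin 2.

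Against the control line, fewer chain genes rose than fell in each of the 3 knockdown lines. With hairpin 1, 4 of 25 tested genes rose and 8 fell (edgeR, adjusted p under 0.05), where 31.5% of all 12868 tested genes rose and 31.5% fell. With hairpin 2, 4 rose and 14 fell, beside 36.6% and 37.8% of all tested genes, and with hairpin 3, 2 rose and 11 fell, beside 23.6% and 24% of all. In sum 48%, 72% and 52% of the chain genes were called, beside 63.1%, 74.4% and 47.6% of all tested genes. The difference between these shares was not tested. All 3 comparisons share the control libraries, and in bulk RNA fewer cells of a kind and less RNA per cell cannot be told apart. The median log2 fold change of the 25 genes was -0.32, -0.51 and -0.35, where that of all genes was 0.006, -0.017 and 0.009. The split between directions moved with the scaling: with offsets that remove each library's length trend, 2 rose and 16 fell with hairpin 1, 3 rose and 18 fell with hairpin 2, and 2 rose and 16 fell with hairpin 3. By limma on log2(TPM + 1), it was 5 and 7, 4 and 5, and 2 and 7. Limma tested only genes with a mean of at least 1 TPM, which left out ITGA10, ITGAM, ITGB3, ITGB8, LAMA2 and LAMA3. Its counts thus differ from the others in the genes tested as well as in the scale. The shares of all tested genes called with these offsets and by limma are not given here. These counts therefore do not tell a move of the chain genes from a general one. Same-numbered control and hairpin 3 libraries deviated together (correlations of 0.787, 0.18 and 0.653), and a fit of these 6 libraries with the replicate number as a block, called the paired fit here, gave 4 higher and 15 lower of 24 tested chain genes with hairpin 3, beside 35.9% and 35.5% of all genes tested in it.

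**Figure D2:**
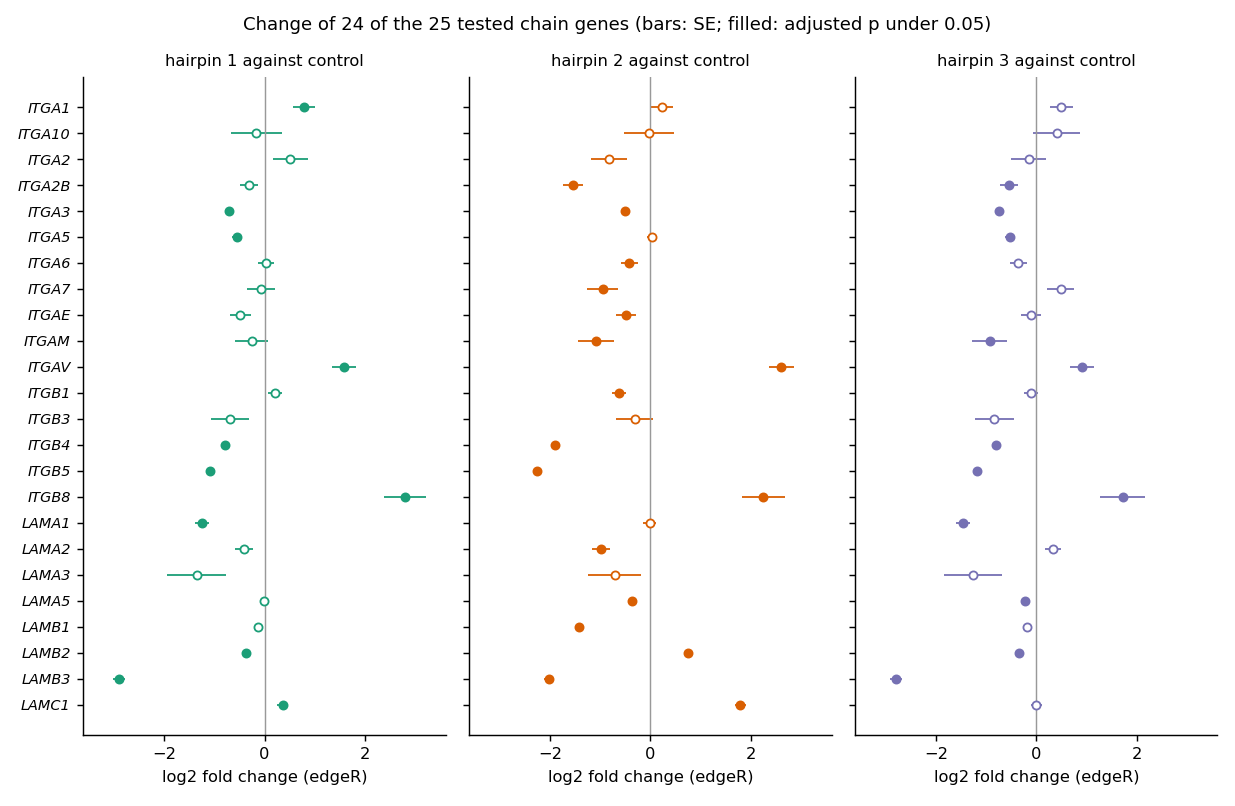
Log2 fold change of 24 of the 25 tested chain genes against the control line, with 1 panel per hairpin, bars for the standard error and filled points for an adjusted p under 0.05. LAMB3 lies farthest to the left with hairpins 1 and 3, and ITGAV and ITGB8 are filled on the right in all 3 panels.

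The alphaV chain rose in all 3 lines, while ITGB5, the most abundant of its partners apart from ITGB1, fell. ITGAV encodes the alpha chain shared by the receptors for RGD-bearing ligands such as vitronectin and latent TGF-beta, and spans chr2:186590065-186680901 on the plus strand with 30 exons. It was at 61.1, 43.1 and 38.3 CPM in the control libraries, while the hairpin 1 libraries held 141, 141 and 144 CPM, the hairpin 2 libraries 247, 286 and 331 CPM and the hairpin 3 libraries 128, 72.1 and 66.5 CPM. Every knockdown library lay above every control library, those of hairpin 2 highest, and within hairpin 3 the first library stood apart from the others. The log2 fold changes were 1.58 ± 0.24 (SE), 2.60 ± 0.24 and 0.90 ± 0.23, with edgeR adjusted p of 0.000247, 2.18e-06 and 0.00877. The hairpin 3 value was 0.55 without its first library, and its adjusted p was 0.0552 by edgeR when only those 6 libraries were fitted. With length offsets the 3 values were 1.09, 1.97 and 0.65, and with length and GC offsets 0.82, 1.69 and 0.41.

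ITGB5, the beta chain that forms the vitronectin receptor alphaVbeta5, fell in all 3 lines. The gene spans chr3:124761948-124901418 on the minus strand with 15 exons. Its control libraries held 148, 155 and 161 CPM. The hairpin 1 libraries held 72.3, 74.2 and 72.0 CPM, those of hairpin 2 held 32.1, 33.8 and 31.5 CPM, and those of hairpin 3 held 64.5, 68.0 and 72.6 CPM. No knockdown library overlapped the control line, and hairpin 2 lay below the others. These were log2 fold changes of -1.09 ± 0.07, -2.25 ± 0.07 and -1.18 ± 0.07, or 2.13-, 4.76- and 2.26-fold lower (edgeR adjusted p 2.04e-07, 5.22e-10 and 1.14e-07). These 3 calls held in each alternative setting run. The ratio of ITGAV to ITGB5 on the TPM scale was 0.143 ± 0.0419 in the control line, 0.884 ± 0.0359 with hairpin 1, 4.0 ± 0.616 with hairpin 2 and 0.592 ± 0.256 with hairpin 3 (SD, n = 3). The less abundant chain of alphaVbeta5 was ITGAV in the control line and with hairpins 1 and 3, and ITGB5 with hairpin 2. ITGAV has the longer transcript (6714 bases against 3025 for ITGB5, from the counts and FPKM). TPM does not remove the length trends of the libraries, whose part in the ratio was not tested.

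ITGB8, whose dimer with alphaV activates latent TGF-beta, rose from a low level. The gene spans chr7:20330702-20415754 on the plus strand with 14 exons. It lay at 1.52, 0.646 and 0.447 CPM in the control line, whereas the hairpin 1 libraries held 6.14, 5.97 and 6.21 CPM, the hairpin 2 libraries 3.16, 3.601 and 5.73 CPM and the hairpin 3 libraries 4.55, 1.96 and 2.15 CPM. No knockdown library overlapped a control library. The log2 fold changes were 2.79 ± 0.42, 2.24 ± 0.43 and 1.71 ± 0.45 (edgeR adjusted p 0.000228, 0.000574 and 0.00938), and that of hairpin 2 was 1.47 with length offsets and 1.19 with length and GC offsets. Even with hairpin 1 its level was 1.34 ± 0.0173 TPM, far below the 44.4 ± 1.88 TPM of ITGB5. ITGB3, the beta chain of alphaVbeta3, was at 0.253 to 0.905 CPM in all libraries, and was at -0.69, -0.32 and -0.84, not called. With length offsets its hairpin 1 and hairpin 3 values were a called -1.10 and -1.02, and the hairpin 3 value was also called without the second hairpin 3 library (-1.24). With the replicate block and length offsets the hairpin 2 value was a called -0.81. ITGB3 shares 51.57% of its exonic bases with AC068234.1 on the same strand.

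The 250-base stretch before the RefSeq start, or that stretch without bases inside the gene as GENCODE draws it, is given for the 4 chain genes with the largest called changes among those with a control mean of at least 1 CPM and a RefSeq window: LAMB3 and ITGB5, which fell in all 3 lines, and ITGAV and LAMC1, which rose most with hairpin 2. The sequences are RefSeq's, build GRCh38.p14, 5′ to 3′ on the gene's strand, and capitals mark matches to the SP1 motif GGGCGG on either strand. They lie at chr1:209652467-209652675 (LAMB3, minus strand), chr2:186589806-186590055 (ITGAV, plus), chr3:124901419-124901668 (ITGB5, minus) and chr1:183023170-183023419 (LAMC1, plus).
LAMB3: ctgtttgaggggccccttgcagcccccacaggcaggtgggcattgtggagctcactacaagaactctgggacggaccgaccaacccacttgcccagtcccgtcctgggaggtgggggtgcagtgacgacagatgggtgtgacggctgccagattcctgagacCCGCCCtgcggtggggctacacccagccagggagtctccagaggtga
ITGAV: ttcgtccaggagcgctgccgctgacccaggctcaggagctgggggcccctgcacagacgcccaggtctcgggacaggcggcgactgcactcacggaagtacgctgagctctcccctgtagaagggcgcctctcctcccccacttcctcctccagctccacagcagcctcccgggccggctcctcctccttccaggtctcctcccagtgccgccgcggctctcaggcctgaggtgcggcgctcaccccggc
ITGB5: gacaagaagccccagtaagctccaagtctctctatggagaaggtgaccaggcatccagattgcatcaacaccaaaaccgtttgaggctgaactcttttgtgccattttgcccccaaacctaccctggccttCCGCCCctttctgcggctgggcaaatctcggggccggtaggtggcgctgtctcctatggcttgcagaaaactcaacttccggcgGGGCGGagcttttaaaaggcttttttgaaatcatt
LAMC1: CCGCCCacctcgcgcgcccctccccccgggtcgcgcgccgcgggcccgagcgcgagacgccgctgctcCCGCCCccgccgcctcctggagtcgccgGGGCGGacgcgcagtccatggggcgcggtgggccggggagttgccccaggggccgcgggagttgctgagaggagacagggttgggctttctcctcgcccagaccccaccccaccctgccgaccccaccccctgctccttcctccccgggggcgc
The motifs searched on both strands in the whole 250-base window were AP-1 (TGANTCA), SP1 (GGGCGG), the TATA box (TATAAA) and TEAD (GGAATG). LAMB3 held 1 SP1 match, ITGB5 held 2, LAMC1 held 3 and ITGAV held none of the 4 motifs. Of the 26 chain genes with a window, 13 held SP1, 1 held AP-1, 1 held TATA and 4 held TEAD, where 42.6%, 6.59%, 10.8% and 11.9% of all 34788 windows did. Each chain gene gave 1 window, whereas the 34788 hold every different window. The only AP-1 matches, 2 of them, were in the window of LAMA3. That window precedes a start 183577 bp inside the gene as GENCODE draws it, and the start used for ITGB1 lies 47562 bp inside its gene. A match is a description of the letters only.

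ITGB4, whose long cytoplasmic tail anchors hemidesmosomes to keratin filaments, pairs only with ITGA6 and spans chr17:75721328-75757818 on the plus strand with 40 exons. Its control libraries lay at 131, 139 and 156 CPM, those of hairpin 1 at 84.7, 84.6 and 78.0 CPM, those of hairpin 2 at 37.3, 39.6 and 37.0 CPM and those of hairpin 3 at 76.7, 81.9 and 86.4 CPM. The control line stood above every knockdown library, and hairpin 2 below all others. The summed epithelial markers given above were also lowest with hairpin 2, though EPCAM stood close to its control level on TPM there. Their part in this result was not tested. ITGB4 had log2 fold changes of -0.78 ± 0.08, -1.90 ± 0.08 and -0.80 ± 0.08 (edgeR adjusted p 1.51e-05, 5.57e-09 and 1.31e-05). That of hairpin 1 was -0.39 by limma on TPM and -1.18 with length offsets, called in both. ITGA6 changed less: it fell by 0.42 on the log2 scale with hairpin 2 (adjusted p 0.0362) and had values of 0.03 and -0.36, not called, with hairpins 1 and 3. The hairpin 2 call on ITGA6 was lost without the first control library (-0.23), without any 1 of the hairpin 2 libraries (-0.41 to -0.43) and by limma on TPM (0.01). Length offsets turned the hairpin 1 value of ITGA6 to a called -0.32, whereas it was a called 0.21 without the first control and first hairpin 3 libraries. Its hairpin 3 value was called in the paired fit (-0.36), with length offsets (-0.52), without control library 3 (-0.49) and without the first hairpin 3 library (-0.58). ITGB4 was the less abundant chain of alpha6beta4 in every line, at 37.8, 28.6, 13.7 and 24.4 TPM against 52.8, 66.7, 51.3 and 45.6 TPM of ITGA6 in the control line and with hairpins 1, 2 and 3.

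ITGA3, the alpha chain of the laminin-332 and laminin-511 receptor alpha3beta1, fell in all 3 lines by 0.70, 0.51 and 0.74 on the log2 scale. The hairpin 2 call was lost by limma on TPM, where it was -0.06, and was -0.87 with length offsets. ITGA7, another laminin-binding chain, fell by 0.95 with hairpin 2 from a level of 1.46 to 3.00 CPM in the control line, a call that was lost without control library 3 (-0.74), without the second hairpin 2 library (-0.68) and by limma on TPM (-0.21). With hairpin 3 ITGA7 was at 0.48, called in the paired fit, by limma on TPM (0.37) and with length and GC offsets (0.64). Of the collagen receptors, ITGA1 rose with hairpin 1 (0.79 ± 0.22, edgeR adjusted p 0.00869) but was at 0.07 with length offsets, no longer called. It was at 0.23 with hairpin 2, where length offsets turned it to a called -0.70. With hairpin 3 it was at 0.50 and was called in the paired fit and without the first control library (0.74) or without hairpin 3 library 3 (0.65).

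ITGA2, at chr5:52989326-53094779, had the widest spread of the abundant chains. Its libraries held 1065, 552 and 388 CPM in the control line, while the hairpin 1 libraries held 921, 965 and 973 CPM, the hairpin 2 libraries 356, 374 and 405 CPM and the hairpin 3 libraries 944, 459 and 396 CPM. The first control and first hairpin 3 libraries were high, and within their lines the same libraries had the highest length slopes, whose part in these values was not tested. Control and hairpin 1 overlapped, and no comparison of ITGA2 against the control line was called (0.51, -0.82 and -0.16, edgeR adjusted p 0.219, 0.0524 and 0.735). Without the first control library the hairpin 1 value was 1.02 and was called, whereas it was 0.01 with length offsets and -0.20 with length and GC offsets, not called in either. The hairpin 2 value was called without control library 3 (-1.10), without hairpin 3 library 1 or 3 (-0.82 in both), which enters only through the shared estimate of spread, with length offsets (-1.48), without a filter on low counts (-0.83) and in a fit of only those 6 libraries (-0.82). It was -0.31 without the first control library, not called, and by limma on TPM it was -0.25, not called. The hairpin 3 value was a called -0.14 in the paired fit and a called -0.61 with length and GC offsets.

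ITGB1, at chr10:32900319-33005792, held 1297, 1039 and 873 CPM in the control line, while the hairpin 1 libraries held 1217, 1225 and 1271 CPM, the hairpin 2 libraries 680, 682 and 718 CPM and the hairpin 3 libraries 1201, 912 and 885 CPM. The hairpin 2 libraries lay below all others, and the other lines overlapped. The hairpin 2 value of -0.62 ± 0.14 was called (edgeR adjusted p 0.00151), but limma on TPM gave -0.17 and no call. The values of 0.21 and -0.10 with hairpins 1 and 3 were not called. That of hairpin 1 was called at 0.37 without the first control library and at 0.61 by limma on TPM, and turned to a called -0.13 with length and GC offsets. That of hairpin 3 was a called -0.09 in the paired fit and a called -0.34 with length and GC offsets.

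ITGA5, the alpha chain of the fibronectin receptor alpha5beta1, fell with hairpins 1 and 3 (-0.55 ± 0.10 and -0.52 ± 0.10) and was at 0.03 with hairpin 2. ITGA2B, the alpha chain of the platelet fibrinogen receptor, spans chr17:44372180-44389505 on the minus strand with 30 exons and fell with hairpin 2 (-1.55 ± 0.20) and hairpin 3 (-0.55 ± 0.18). Its libraries lay at 4.75, 6.01 and 5.42 CPM in the control line, while the hairpin 1 libraries held 4.57, 4.48 and 3.93 CPM, the hairpin 2 libraries 1.75, 1.93 and 1.85 CPM and the hairpin 3 libraries 2.80, 3.35 and 4.87 CPM. The hairpin 2 libraries stood below all others, while hairpin 3 reached into the control range. Its hairpin 3 call was lost without the second or last control library (-0.47 and -0.55) or the first or second hairpin 3 library (-0.39 and -0.49). The 2 platelet and megakaryocyte markers in the table (PPBP and GP1BA) summed to 14.89 to 17.33 TPM in the control line, between 6.35 and 6.93 TPM with hairpin 1, between 4.88 and 6.63 TPM with hairpin 2 and between 7.15 and 9.23 TPM with hairpin 3, and their part in the ITGA2B values was not tested. The 2 markers did not move alike: PPBP had means of 15.2, 2.71, 3.6 and 5.76 TPM and GP1BA 1.34, 3.89, 2.21 and 2.12 TPM in the control line and with hairpins 1, 2 and 3. The leukocyte chains ITGAE and ITGAM were at 6.85 to 12.9 and 0.403 to 1.52 CPM. ITGAE fell with hairpin 2 (-0.49, adjusted p 0.0458), a call that DESeq2 did not make and that was lost without control library 2 or 3, any hairpin 1 or hairpin 2 library or the second hairpin 3 library (-0.32 to -0.53), and limma on log2(TPM + 1) gave -0.02. With hairpin 1 ITGAE was at -0.48 and not called, but it was called by DESeq2 (-0.50), with length offsets (-0.71) and without the first control library (-0.68) or the first hairpin 3 library (-0.50). It shares 6.41% of its exonic bases with HASPIN on the other strand. ITGAM fell with hairpins 2 and 3 (-1.08 and -0.93), and both calls were lost without the first control library (-0.61 and -0.46). The hairpin 2 call of ITGAM was also lost without the first hairpin 2 library (-0.99), and its hairpin 3 call without any 1 of the 9 knockdown libraries (-0.84 to -1.11). ITGA10 was not called against the control line, except with hairpin 3 when the first control and first hairpin 3 libraries were left out (1.30 against 0.40).

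LAMB3 fell in all 3 lines. It encodes the beta3 chain of laminin-332, the hemidesmosomal laminin of epithelia, and spans chr1:209614870-209652466 on the minus strand with 22 exons. It held 18.0, 19.7 and 19.7 CPM in the control line. The hairpin 1 libraries held 2.42, 2.73 and 2.54 CPM, those of hairpin 2 held 4.57, 4.95 and 4.61 CPM, and those of hairpin 3 held 2.41, 2.59 and 3.22 CPM. The lines did not overlap, apart from hairpins 1 and 3. This was the largest change among the 25 genes with hairpins 1 and 3: -2.90 ± 0.12 and -2.80 ± 0.12, or 7.45- and 6.95-fold lower, with -2.02 ± 0.11 or 4.05-fold lower for hairpin 2 (edgeR adjusted p 8.66e-09, 1.17e-08 and 2.85e-08). All 3 calls held in each alternative setting run, and length offsets gave -3.08, -2.22 and -2.87. By limma on log2(TPM + 1), which understates the change of low genes, hairpins 1 and 2 were at -1.88 and -1.27.

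LAMA3, the alpha3 chain of the same trimer, had log2 fold changes of -1.35 ± 0.58, -0.71 ± 0.53 and -1.26 ± 0.57, which were not called, from 0.319 to 0.950 CPM in the control line. Among the settings that gave a called value were those without control library 3 (-1.70 with hairpin 1 and -1.61 with hairpin 3) or without the second hairpin 1 library (-2.13). LAMA3 stayed uncalled in 15 of 20 alternatives with hairpin 1, 19 of 21 with hairpin 2 and 17 of 20 with hairpin 3. LAMA3 was less abundant than LAMB3 in every line, at 0.197, 0.113, 0.143 and 0.103 TPM, where LAMB3 was at 7.30, 1.26, 2.44 and 1.18 TPM in the control line and with hairpins 1, 2 and 3.

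In the gamma1 and beta2 chains, which belong to laminins outside hemidesmosomes, hairpin 2 stood apart. LAMC1 encodes the gamma1 chain of most laminins and spans chr1:183023460-183145592 with 28 exons. It held 123, 102 and 94.3 CPM in the control line, while the hairpin 1 libraries held 133, 143 and 134 CPM, the hairpin 2 libraries 366, 352 and 381 CPM and the hairpin 3 libraries 121.1, 100.2 and 97.7 CPM. The hairpin 2 libraries were far above the rest, hairpin 1 was just above the control line, and hairpin 3 overlapped it. The log2 fold changes were 0.36 ± 0.10, 1.78 ± 0.11 and 0.00 ± 0.11 (edgeR adjusted p 0.0106, 6.52e-08 and 0.999). The hairpin 2 rise of LAMC1 was 1.06 with length offsets and still called, whereas hairpin 1 turned to a called -0.21 and hairpin 3 became a called -0.26.

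LAMB2, the beta2 chain of laminin-521, rose with hairpin 2 and fell with the others. It spans chr3:49121114-49133118 and held 113, 119 and 125 CPM in the control line, while the hairpin 1 libraries held 94.0, 93.4 and 89.2 CPM, the hairpin 2 libraries 204, 202 and 190 CPM and the hairpin 3 libraries 88.3, 98.3 and 93.9 CPM. The control libraries lay between hairpin 2 above and both other hairpins below, without overlap. LAMB2 had log2 fold changes of -0.37 ± 0.07, 0.74 ± 0.07 and -0.35 ± 0.07 (edgeR adjusted p 0.000685, 1.3e-06 and 0.00127). The rise was 0.24 and not called with length offsets, and limma on TPM gave 0.01 and -0.18, not called, for hairpins 1 and 3. On that TPM scale the median over all 11807 genes compared was itself 0.32, 0.36 and 0.14 above the control line with hairpins 1, 2 and 3. Among the calls that it kept with values more than 1.5 times smaller were those of ITGB5 (-0.71), ITGA3 (-0.30) and ITGA5 (-0.28) with hairpin 1, and of ITGA2B (-0.67) and LAMB1 (-0.90) with hairpin 2.

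LAMB1, the beta1 chain of laminin-111 and laminin-511, fell with hairpin 2 alone among the called comparisons against the control line. It spans chr7:107923799-108003255 and held 55.7, 51.0 and 51.9 CPM in the control line, while the hairpin 1 libraries held 46.4, 48.6 and 50.6 CPM, the hairpin 2 libraries 21.2, 18.3 and 19.7 CPM and the hairpin 3 libraries 47.3, 47.9 and 44.6 CPM. The hairpin 2 libraries were below all others. Its log2 fold change was -1.42 ± 0.08 (edgeR adjusted p 2.85e-08), and the values of -0.12 and -0.18 with hairpins 1 and 3 became called with length offsets (-0.51 and -0.35). The hairpin 3 value was also called in the paired fit (-0.18), without the first or second hairpin 2 library (-0.19 in both) and by DESeq2 (-0.18).

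LAMA1, the alpha1 chain of laminin-111, fell with hairpins 1 and 3 and was not called with hairpin 2. The gene spans chr18:6941744-7117814 on the minus strand with 63 exons. It held 10.1, 7.89 and 9.31 CPM in the control line, while the hairpin 1 libraries held 3.92, 3.96 and 3.68 CPM, the hairpin 2 libraries 10.2, 9.003 and 7.71 CPM and the hairpin 3 libraries 3.32, 3.61 and 2.97 CPM. Control and hairpin 2 overlapped, and hairpins 1 and 3 lay below both. LAMA1 had log2 fold changes of -1.24 ± 0.14, -0.02 ± 0.13 and -1.46 ± 0.14 (edgeR adjusted p 3.48e-05, 0.898 and 1.12e-05). With length offsets hairpin 2 also fell, to -0.89, and hairpin 1 was at -1.92. By limma on log2(TPM + 1) hairpin 2 was a called 0.26, and hairpins 1 and 3 were at -0.43 and -0.61, both called. The antisense gene AP002409.1 covers 10.3% of the exonic bases of LAMA1, and reads of overlapping genes cannot be told apart without strand.

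LAMA5, the alpha5 chain of laminin-511 and laminin-521 and the most abundant laminin alpha chain, had values that depended on the scaling. The gene spans chr20:62307955-62367312 on the minus strand with 80 exons. It held 78.2, 70.5 and 73.0 CPM in the control line, while the hairpin 1 libraries held 74.0, 76.8 and 69.5 CPM, the hairpin 2 libraries 56.8, 60.1 and 54.5 CPM and the hairpin 3 libraries 68.2, 60.8 and 60.7 CPM. Its values of -0.37 with hairpin 2 and -0.22 with hairpin 3 were called and -0.01 with hairpin 1 was not. Limma on TPM gave 0.07 and -0.06, not called, for hairpins 2 and 3, and a called 0.34 for hairpin 1. With length offsets the values were -0.79, -1.37 and -0.58 with hairpins 1, 2 and 3, all called, and with length and GC offsets -0.41, -0.76 and -0.21, also called. The hairpin 3 call was lost without control library 1 or 3 (-0.18 and -0.23) or hairpin 3 library 2 or 3 (-0.20 in both). LAMA2 fell with hairpin 2 (-0.98 ± 0.18) from 2.61 to 3.56 CPM in the control line, and was at -1.86 with length offsets and -1.96 with length and GC offsets. It was not called with hairpin 1 (-0.41), except with length offsets (-1.09), without control library 3 (-0.50), the second hairpin 1 library (-0.53) or the first hairpin 3 library (-0.42).

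Set together by trimer, the least abundant chain of laminin-511 (LAMA5, LAMB1 and LAMC1) was LAMA5 in the control line and with hairpins 1 and 3, at 9.60, 12.3 and 9.20 TPM, and LAMB1 with hairpin 2, at 7.13 TPM. That of laminin-521 (LAMA5, LAMB2 and LAMC1) was LAMA5 in all 4 lines. TPM does not remove the length trends of the libraries, whose part in these ranks and in the shares below was not tested. As a share of the summed TPM of the beta chains, LAMB2 made up 59.5% ± 1.47 in the control line, 63.7% ± 1.61 with hairpin 1, 88.2% ± 0.454 with hairpin 2 and 64.6% ± 1.24 with hairpin 3 (SD, n = 3), and LAMB3 made up 13.8% ± 0.465, 2.51% ± 0.0931, 3.01% ± 0.193 and 2.77% ± 0.476. ITGAV made up 4.51% ± 0.397 of the alpha chains in the control line and 10.3% ± 0.129, 29.9% ± 2.48 and 9.36% ± 0.227 with hairpins 1, 2 and 3. ITGB5 made up 13.4% ± 2.57 of the beta chains against 5.98% ± 0.254, 4.89% ± 0.316 and 7.19% ± 1.39. For these 4 chains no knockdown library overlapped the control libraries, and the exact two-sided permutation p was 0.1, the smallest that 3 against 3 libraries allow (0.113 adjusted over the 18 tests of chain shares). ITGA2 had shares of 51.8% ± 10.2, 61.6% ± 0.860, 35.1% ± 0.0816 and 53.7% ± 8.14, with exact permutation p of 0.4, 0.1 and 0.7 (0.424, 0.113 and 0.7 adjusted).

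**Figure D3:**
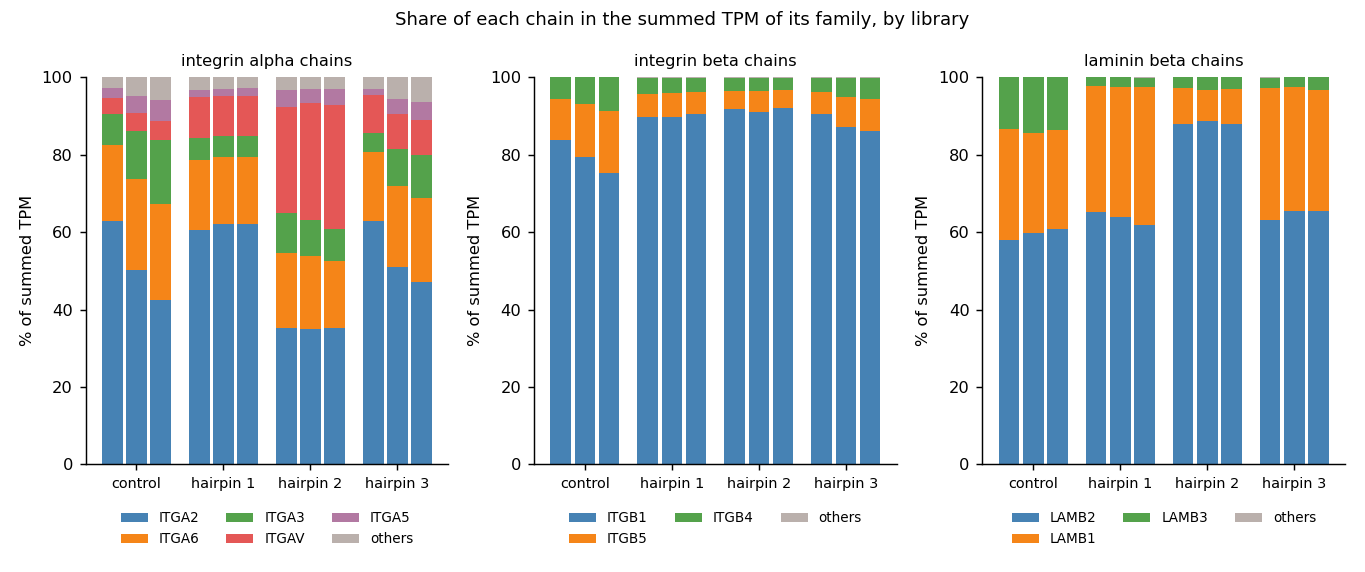
Share of each chain in the summed TPM of its family, in per cent, with 1 stacked bar per library and 1 panel each for integrin alpha, integrin beta and laminin beta chains. ITGAV widens to 27.3% to 32.2% of the alpha chains with hairpin 2, and LAMB3 shrinks from 13.3% or more to 3.32% or less of the beta laminins.

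Compared with each other, the 3 knockdown lines were not alike. Between hairpins 2 and 1, 7 of the 25 chain genes were higher and 11 lower in the hairpin 2 line, beside 28.2% and 29.4% of all tested genes. Between hairpins 3 and 2, 7 were higher and 8 lower in the hairpin 3 line, beside 33.4% and 31.9%. Between hairpins 3 and 1, 1 was higher and 0 lower, beside 4.75% and 4.7%. The 1 gene was LAMA2 (0.74 ± 0.17, edgeR adjusted p 0.0226), and the 0 became 3 by DESeq2 and 8 without the first hairpin 3 library. These comparisons show where hairpin 2 differed: ITGAV (1.02 ± 0.23), LAMC1 (1.43 ± 0.11), LAMB2 (1.11 ± 0.07), LAMA1 (1.22 ± 0.14) and LAMB3 (0.88 ± 0.13) were higher with hairpin 2 than with hairpin 1. In the same comparison ITGB5 (-1.17 ± 0.07), ITGB4 (-1.12 ± 0.08), ITGB1 (-0.83 ± 0.14), ITGA2 (-1.33 ± 0.36) and LAMB1 (-1.30 ± 0.08) were lower. SKA2 itself was called in none of these 3 comparisons (edgeR adjusted p 0.473, 0.243 and 0.452 for hairpins 2 and 1, 3 and 1, and 3 and 2).

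**Figure D4:**
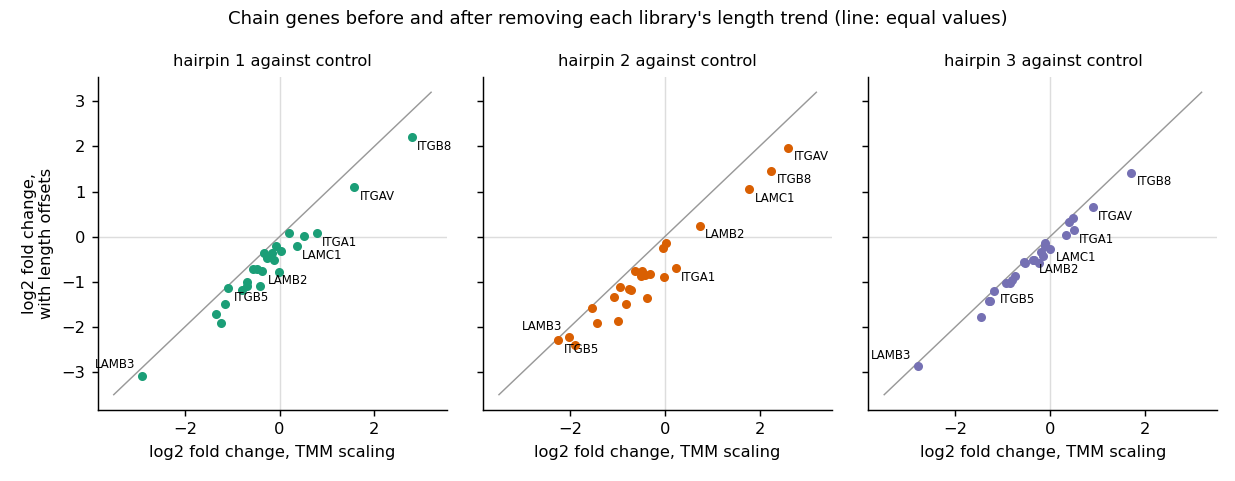
Log2 fold change of each tested chain gene against the control line with TMM scaling (horizontal axis) and with offsets for each library's length trend (vertical axis), with 1 panel per hairpin and a line of equal values. All 25 points lie below the line in each panel, by a median of 0.36, 0.46 and 0.16, while LAMB3, ITGB5 and ITGAV keep their direction.

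The other genes of the pathway were grouped by role. The counts of each group stand beside 31.5%, 36.6% and 23.6% of all tested genes that rose and 31.5%, 37.8% and 24% that fell with hairpins 1, 2 and 3, and no difference from these shares was tested. Alternative settings are reported for the chain genes only, so none of the values of these groups was checked with length offsets. Of 28 tested genes for integrin adhesion and activation, 6 rose and 9 fell with hairpin 1, 7 rose and 10 fell with hairpin 2 and 3 rose and 10 fell with hairpin 3, with medians of -0.16, 0.05 and -0.15 on the log2 scale. Paxillin (PXN), an adaptor of focal adhesions, fell by 1.10, 1.44 and 1.06, and the tensin TNS4 fell by 1.62, 2.49 and 1.73. Another tensin, TNS3, rose by 1.26, 1.56 and 0.98, and focal adhesion kinase (PTK2) rose by 0.47, 1.18 and 0.36 with hairpins 1, 2 and 3. Of 7 tested hemidesmosome partners and tetraspanins, 5 fell in each line, and 1, 1 and 0 rose (medians -0.58, -0.45 and -0.68). Plectin (PLEC), which links ITGB4 to keratin, fell by 0.55, 0.42 and 0.89, and the laminin-receptor tetraspanin CD151 fell by 0.90, 1.08 and 0.84. CD9, another tetraspanin, fell by 0.58, 0.69 and 0.68. The tetraspanin CD63 fell by 1.11 and 0.88 with hairpins 1 and 3 and was at -0.006, not called, with hairpin 2. DST went the other way: it rose by 1.025 and 0.913 with hairpins 1 and 2, and was at 0.555, not called, with hairpin 3. Its transcript is long (17502 bases from the counts and FPKM), and the part of the length trend in these values was not tested.

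Beside the same shares of all tested genes (31.5%, 37.8% and 24% lower, 31.5%, 36.6% and 23.6% higher), 2, 5 and 2 of 5 tested laminin receptors other than integrins fell and 1, 0 and 0 rose (medians -0.27, -0.99 and -0.19). The syndecan SDC1 fell by 0.61, 1.43 and 0.39, and BCAM, a receptor for the laminin alpha5 chain, fell by 1.59 with hairpin 2 and had values of -0.27 and -0.12, not called, with hairpins 1 and 3. Dystroglycan (DAG1) rose by 0.33 with hairpin 1 and fell by 0.79 with hairpin 2. Of 7 tested basement membrane partners, 1, 2 and 0 rose and 1, 2 and 1 fell (medians -0.26, -0.27 and -0.72). Agrin (AGRN) fell by 0.51, 0.79 and 0.72, the type IV collagen chain COL4A4 rose by 2.06 and COL4A5 fell by 1.53 with hairpin 2, and perlecan (HSPG2) rose by 0.71 and 0.84 with hairpins 1 and 2. HSPG2 has a long transcript (14074 bases from the counts and FPKM), and the part of the length trend in its rise was not tested. Of 9 tested genes in the group of other integrin ligands, 4, 2 and 3 rose and 3 fell in each line (medians 0.38, -0.10 and 0.08). TGFB1, whose latent form is bound by the alphaV dimers, fell by 1.23, 1.03 and 1.41. LTBP1, which tethers that latent form to the matrix, fell by 2.20 with hairpin 2 and had values of 0.38 and 0.08, not called, with hairpins 1 and 3. Nephronectin (NPNT) rose by 1.66, 1.05 and 1.28, and ICAM1 fell by 1.09 and 1.13 with hairpins 1 and 3.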

How the data were processed

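Trizol RNA was selected for poly(A), fragmented and primed with random hexamers before BGISEQ-500 sequencing, per the labels' protocols, which name no step that keeps the strand. HISAT, Bowtie2, RSEM and DESeq2 with build GRCh38.p13 were used, per the submitters' processing notes. The authors deposited expected counts, TPM and FPKM per gene and library. FPKM as deposited was used for the check of its column sums and, with the counts, for the transcript lengths behind the length slopes and offsets. The 15 columns of averages were not used. Groups and replicate numbers came from the titles.

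Expected counts were rounded to whole numbers, scaled by TMM and tested by edgeR's quasi-likelihood test (edgeR 4.0.16, R 4.3.3) over all 12 libraries without a block, with Benjamini-Hochberg adjusted p under 0.05 over the 12868 genes kept by filterByExpr. The ± after a log2 fold change is its standard error. With simulated counts of 12736 genes for hairpin 1 against control, 82.8% of genes changed by a true log2 of 1 and 96% by 2 were recovered, and 0.0718% of unchanged genes were called. The simulation changed 200 genes in the hairpin 1 line alone and held no length or GC trend. Its shares therefore need not hold for the data, where more genes were called and the libraries differed in these trends. Positions, the median transcript lengths and GC content came from GENCODE release 29 (GRCh38), which matched 17084 of 17303 genes. Alternatives were RLE scaling, no count filter, DESeq2 1.42.0, limma 3.58.1 on log2(TPM + 1) and log2(TPM + 0.1), length offsets, fits of only the lines compared, a replicate block and leaving out each library. Length and GC offsets, leaving out the first control and first hairpin 3 libraries, and a replicate block in a fit of control and hairpin 3 alone (the paired fit) were added after seeing the data. That block was chosen because deviations of same-numbered libraries of those 2 lines from the line means correlated (0.787, 0.18 and 0.653 across 12134 genes). Deviations from a mean of 3 libraries are not independent, so these correlations do not show that the numbers pair the libraries. No label gives the numbers a meaning. The genes, lists and tests were chosen with earlier results of these data known. Values per library and positions are printed for chain genes with a mean of at least 1 CPM, a call against the control line and an absolute log2 fold change of at least 1, and for the most abundant chain of each family. Up to 4 genes are named per further list, and DST in addition. The values of 1 tested chain gene are not reported here, though counts and medians over the chain genes include it.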

Additional observations from a re-analysis of the deposited data

Results flagged for a closer look

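LAMB2 moved in opposite directions in lines that carry hairpins against the same gene: on the scale of TMM-scaled CPM every library of hairpins 1 and 3 lay below every control library, and every library of hairpin 2 lay above. On TPM hairpin 1 (30.48 to 32.66) overlapped the control line (29.78 to 34.29). The falls with hairpins 1 and 3 were not called by limma on TPM (0.01 and -0.18), and the rise with hairpin 2 was 0.24 and not called with length offsets. A gene was flagged only if its calls were opposite and the difference between the hairpins was called too, so that call is no further support. The difference had log2 fold changes of 1.11 for hairpin 2 against hairpin 1 (edgeR adjusted p 1.01e-07) and -1.09 for hairpin 3 against hairpin 2 (edgeR adjusted p 1.03e-07). What sets the hairpin 2 line apart was not tested.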

How the results depend on the processing

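Over all recomputed values of single chain genes, 163 gained a call in the same direction, 112 lost one and 26 turned with a call before or after. The other 3089 kept their side of the threshold, and those called kept their direction. A turn of a value that was called neither before nor after is among the 3089. The counts of called genes moved most with corrections of the length trend, on the TPM scale and when libraries that stand apart were left out, and the cause was not tested. On the TPM scale, chain genes with a mean under 1 TPM were also not tested by limma. Apart from the paired fit, the shares of all tested genes called in these settings are not given here. The counts therefore do not tell whether the chain genes moved more than other genes. With length offsets, 2 rose and 16 fell with hairpin 1, 11 were higher with hairpin 3 than with hairpin 2, and 2 were lower with hairpin 3 than with hairpin 1. Length and GC offsets gave 2 higher and 17 lower with hairpin 1, 17 lower with hairpin 3, 12 higher for hairpin 3 against 2, and 2 higher and 4 lower for hairpin 3 against 1. By limma at either pseudocount, 5 fell with hairpin 2, 7 fell with hairpin 3, 7 were lower with hairpin 2 than with hairpin 1, and 0 were higher and 2 lower with hairpin 3 than with hairpin 1; at the pseudocount of 0.1, 1 rose with hairpin 3. Fits of only the lines compared gave 1 higher with hairpin 3 and 0 higher for hairpin 3 against 1, and DESeq2 gave 3 lower there. Without the first control and first hairpin 3 libraries, 7 rose with hairpin 1 and 4 with hairpin 3, and 3 were higher and 9 lower with hairpin 3 than with hairpin 1. Leaving out 1 library gave 4 to 6 higher and 8 to 10 lower with hairpin 1, 4 and 11 to 15 with hairpin 2, and 2 to 3 and 9 to 11 with hairpin 3. It gave 7 to 8 and 7 to 12 for hairpin 2 against 1, 0 to 2 and 0 to 8 for hairpin 3 against 1, and 7 to 9 and 7 to 8 for hairpin 3 against 2.

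Same-numbered libraries deviated together only between control and hairpin 3, where all 3 correlations were over 0.1. For the other pairs of lines at least 1 was negative (from -0.343 to 0.147), and 5 of 12 libraries correlated best with their own number. In a fit of control and hairpin 3 alone with the replicate block, chosen after seeing the data, 4 rose and 15 fell with hairpin 3, and of the 24 chain genes tested in it 6 gained a call and 0 lost one. Over all 12 libraries a replicate block gave 1 lower with hairpin 3 than with hairpin 1 and left the other counts as they were. The replicate block with length offsets gave 2 higher and 16 lower with hairpin 1, 12 higher for hairpin 3 against 2 and 2 lower for hairpin 3 against 1.

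The values that turned with a call before or after, with the cause not tested, were these. With length offsets, with length and GC offsets and with the replicate block and length offsets, ITGA6 with hairpin 1 was at -0.32, -0.47 and -0.32, LAMC1 with hairpin 1 at -0.21, -0.23 and -0.21, ITGA1 with hairpin 2 at -0.70, -0.96 and -0.69, and LAMC1 with hairpin 3 at -0.26, -0.29 and -0.26. With length and GC offsets alone, ITGA1 and ITGB1 with hairpin 1 were at -0.18 and -0.13, and LAMA5 was at 0.20 for hairpin 3 against 1. By limma with a pseudocount of 1 and 0.1, LAMA5 with hairpin 1 was at 0.34 and 0.37, LAMB2 with hairpin 1 at 0.014 in both, ITGA6 with hairpin 2 at 0.009 and 0.01, LAMA5 with hairpin 2 at 0.066 and 0.073, and LAMA1 with hairpin 2 at 0.26 for a pseudocount of 1. For hairpin 3 against 2, ITGA3 was at 0.006 with length offsets, and ITGA6 at -0.15 without the first control and first hairpin 3 libraries.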

Other observations

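Some chain genes are neighbours on a chromosome. ITGA1 and ITGA2, both alpha chains of collagen receptors, lie 30115 bp apart on chromosome 5 and had values of 0.79 (called) and 0.51 (not called) with hairpin 1. LAMB1 and LAMB4 lie 20292 bp apart on chromosome 7, and LAMB4 had too few reads to be tested in any line.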
